A study of Mus musculus with 12 samples.

Results

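The genes examined here encode the parts of the sarcomere and of excitation-contraction coupling. Members were 48 genes given by name, which encode actins, myosins, troponins, titin and nebulin, Z-disc and M-band proteins, calcium channels and pumps, and assembly factors. They were matched on the gene name, and all 48 were found among the 54532 genes of the table. For description they were placed in 9 role lists. Enough reads for a test were present for 32 of them, out of 15122 genes tested. The cells were C2C12, an immortal mouse myoblast line that can form myotubes on serum withdrawal and was kept in serum here, at 5% by the labels, while the study's methods give a higher concentration. All groups received siRNA at 30 nM, which was non-targeting (siCONTROL), directed at Keap1 (siKEAP1), directed at Ccnf (siCCNF), or the combination (siKEAP1/siCCNF). Cells were harvested 48 h later, and each of the 4 groups had 3 biological replicates. KEAP1 is the substrate adaptor through which the ubiquitin ligase CUL3 acts on the transcription factor NRF2, and CCNF (cyclin F) is an adaptor of the ubiquitin ligase CUL1. The study asked whether cyclin F bears on muscle differentiation by way of NRF2. Each siRNA acted on a growing population and removed its target only in part. P-values measure the spread between these replicate cultures of 1 line.

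In the sarcomere, thick filaments of myosin pull on thin filaments of actin, tropomyosin and troponin. The thin filaments are anchored at the Z-disc, and titin spans from there to the M-band. In excitation-contraction coupling, a voltage sensor in the cell membrane opens the ryanodine receptor, calcium leaves its store to bind troponin C, and a calcium pump returns it. Proliferating myoblasts transcribe most of these genes weakly, and the genes are switched on when myogenic factors such as MYOD1 and myogenin drive differentiation.

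Counts assigned to genes totalled 18464209 to 37743198 per library. Keap1 stood at 84.3 to 89.97 CPM (reads of a gene scaled to a common library size) in the siCONTROL libraries, at 12.3 to 12.8 CPM after siKEAP1 and at 22.2 to 27.01 CPM after both siRNAs. Ccnf stood at 77.7 to 85.5 CPM in the siCONTROL libraries, at 19.7 to 21.3 CPM after siCCNF and at 23.7 to 25.6 CPM after both. After siKEAP1 alone Ccnf stood at 56.4 to 64.9 CPM, below every siCONTROL library, and after siCCNF alone Keap1 stood at 80.3 to 88.6 CPM. The 6 markers of myoblasts (Myod1, Myf5, Pax7, Des, Cdh15 and Itga7) were each above 1 CPM in every group. Their sum was 1396 to 1615 CPM in the siCONTROL libraries, 858 to 887 CPM after siKEAP1, 634 to 645 CPM after siCCNF and 615 to 704 CPM after both.

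In the siCONTROL libraries the members spanned a wide range of levels. On the FPKM scale, which scales reads by library size and gene length, 6 members had a mean of 10 or more, 11 lay between 1 and 10, and 31 lay under 1. Des, the intermediate filament protein desmin, was at 162 ± 16.6 FPKM (SD, n = 3), and Tpm2, which encodes a tropomyosin, was at 133 ± 8.77 FPKM. Cacng1, the gamma subunit of the muscle calcium channel, was at 48.5 ± 6.31 FPKM, and Actn3, an alpha-actinin of the Z-disc, was at 22.6 ± 5.23 FPKM. The slow troponin T Tnnt1 (12.5 ± 4.94 FPKM) and Jsrp1 (12.4 ± 4.77 FPKM), a protein of the junction between membrane and calcium store, completed the 6. Of the adult myosin heavy chains, none reached 1 FPKM. The sum over the 48 members was 1247 to 1537 CPM in the siCONTROL libraries, 861 to 911 CPM after siKEAP1, 739 to 777 CPM after siCCNF and 688 to 833 CPM after both. Des and Tpm2 made up most of this sum. Without them it was 294 to 433 CPM in the siCONTROL libraries, 187 to 201 CPM after siKEAP1, 133 to 159 CPM after siCCNF and 111 to 127 CPM after both. In whole cultures, fewer cells that express a gene and less RNA of it per cell cannot be told apart.

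Most of the members that could be tested fell in each depletion. After siKEAP1, 27 of the 32 fell and 1 rose at an adjusted p under 0.05, where over all genes tested 20.2% were called lower and 20.4% higher. The median difference was -2.72 on the log2 scale, and 23 of the 27 fell by more than 2-fold, against 3.88% of all genes. With Cav3, which had no read in that group, set to a floor of 3 reads over the group the median was -2.60. After siCCNF, 25 fell and 1 rose (all genes 25.5% lower and 22.5% higher), with a median of -1.19, and 19 fell by more than 2-fold (all genes 6.76%). After both siRNAs, 27 fell and 0 rose against siCONTROL (all genes 23.6% lower and 20.6% higher), with a median of -1.91, and 24 fell by more than 2-fold (all genes 5.54%). The median over all genes tested was -0.01, 0.01 and 0.01 in these comparisons, which share the same 3 siCONTROL libraries. The filter on low counts can keep a weak member through the group where it is high, as with Mybph and Myh1 in siCONTROL. This can tilt the counts and medians towards falls. With at least 10 counts in every library 16 members stayed, and 14 were lower in each comparison. Their medians were -1.58, -1.09 and -1.45, and the share over all genes was not counted. This setting in turn leaves out members near 0 after siKEAP1, such as Actc1. The 28 members whose siKEAP1 libraries all lay below every siCONTROL library compare with 25.7% of all genes. Of all 48 members, 11 had no read in any siKEAP1 library, and the share over all genes was not counted. Among these 11, Tnnc2, Myh2, Smpx, Myl3 and Myoz2 had only 0, 1, 1, 2 and 4 reads in the siCONTROL group, too few to show a fall. Several of the 11, such as Mybpc1 and Cacna1s, also had no read after both siRNAs. For siCCNF the separation held for 26 members (all genes 28.6%), and for both siRNAs for 28 (all genes 25.3%).

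**Figure D1:**
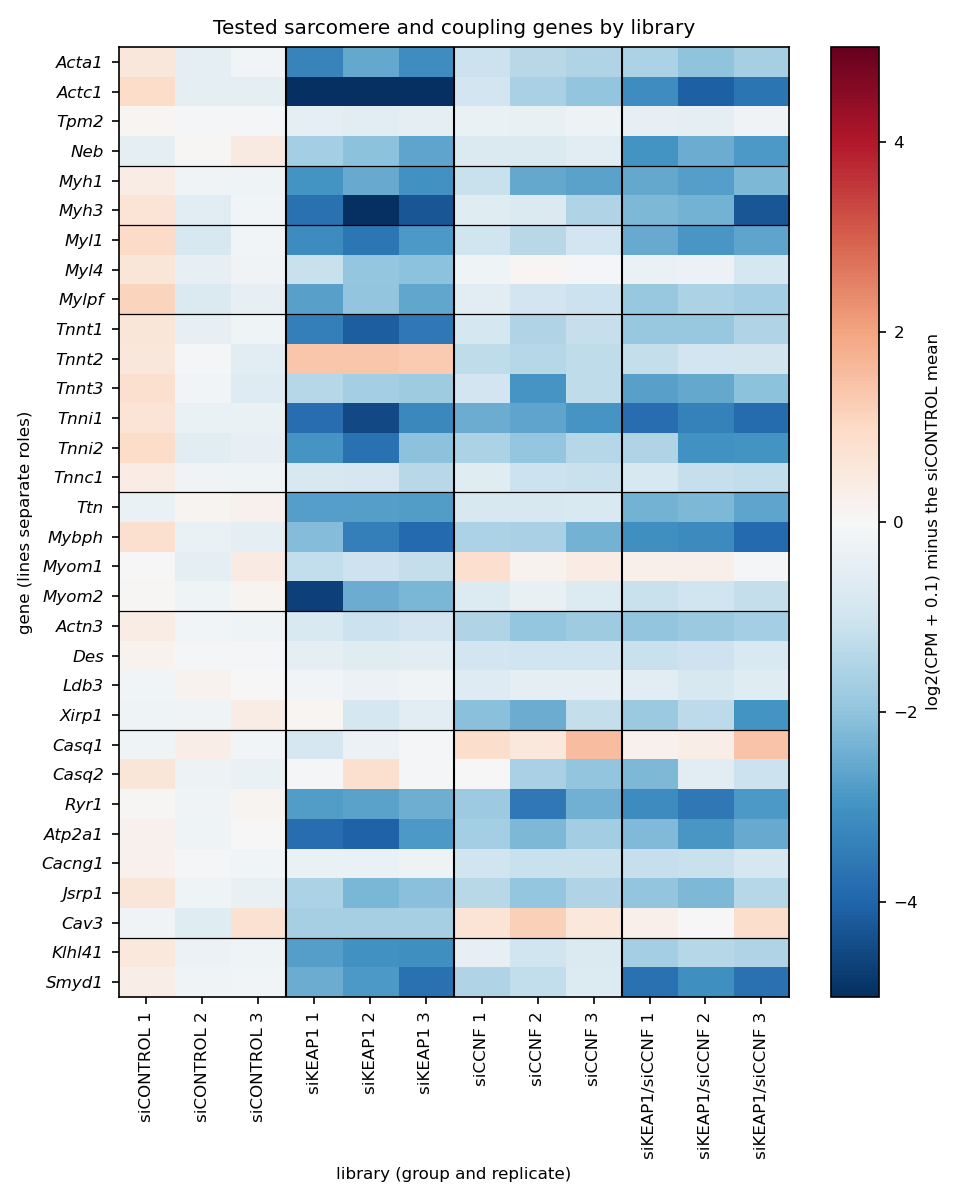
Each cell gives log2(CPM + 0.1) of 1 of the 32 tested members (rows, ordered by role) in 1 library (columns), minus the mean of the 3 siCONTROL libraries, with colours ending at 5 in either direction. The siKEAP1 columns are mostly blue with Tnnt2 red, the siCCNF columns are a lighter blue, and siCONTROL replicate 1 is mostly pale red.

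The promoters of 6 members are shown because they carry short motifs that the members share and because these genes include some of the deepest falls, the 1 member that rose after siKEAP1 (Tnnt2), and the 1 tested member without a read there (Cav3). Each is the 250 bases before a start listed by RefSeq on GRCm38.p6, on the strand of the gene, with capitals marking CAGCTG (an E-box, the kind of site that MYOD1 and myogenin bind), the MEF2 site or the CArG box of serum response factor. The Actc1 window chr2:114052876-114053125 (minus strand) and the Acta1 window chr8:123894776-123895025 (minus strand) end with the base before the start. That of Actc1 lies within the gene as the deposited table gives it (114047280 to 114053550). The Tnni1 window is chr1:135799171-135799420 (plus strand), within the gene as the deposited table gives it, and that of Klhl41 is chr2:69669870-69670119 (plus strand). The Cav3 window is chr6:112459255-112459504 (plus strand) and the Tnnt2 window chr1:135836084-135836333 (plus strand).
Actc1: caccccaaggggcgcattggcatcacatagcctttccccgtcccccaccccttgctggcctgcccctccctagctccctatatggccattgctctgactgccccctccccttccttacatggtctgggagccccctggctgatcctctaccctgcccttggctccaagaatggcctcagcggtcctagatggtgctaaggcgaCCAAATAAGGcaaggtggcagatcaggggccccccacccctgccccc
Acta1: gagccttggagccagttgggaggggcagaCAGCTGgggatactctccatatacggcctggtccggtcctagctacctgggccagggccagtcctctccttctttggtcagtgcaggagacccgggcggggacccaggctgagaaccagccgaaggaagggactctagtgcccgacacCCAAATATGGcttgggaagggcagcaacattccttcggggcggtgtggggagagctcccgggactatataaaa
Tnni1: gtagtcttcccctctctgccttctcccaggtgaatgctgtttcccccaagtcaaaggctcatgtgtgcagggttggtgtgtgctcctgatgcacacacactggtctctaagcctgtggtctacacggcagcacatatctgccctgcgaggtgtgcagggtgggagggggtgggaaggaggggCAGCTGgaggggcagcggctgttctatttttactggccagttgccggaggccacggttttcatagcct
Klhl41: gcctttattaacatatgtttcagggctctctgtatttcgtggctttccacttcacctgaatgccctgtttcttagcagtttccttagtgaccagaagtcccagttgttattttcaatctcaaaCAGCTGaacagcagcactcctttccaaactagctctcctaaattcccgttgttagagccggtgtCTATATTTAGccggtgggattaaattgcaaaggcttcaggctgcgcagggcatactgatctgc
Cav3: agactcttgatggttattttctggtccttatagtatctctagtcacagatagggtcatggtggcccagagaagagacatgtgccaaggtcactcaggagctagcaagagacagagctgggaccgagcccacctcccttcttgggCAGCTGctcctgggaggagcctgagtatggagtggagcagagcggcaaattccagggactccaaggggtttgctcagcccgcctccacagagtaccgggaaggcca
Tnnt2: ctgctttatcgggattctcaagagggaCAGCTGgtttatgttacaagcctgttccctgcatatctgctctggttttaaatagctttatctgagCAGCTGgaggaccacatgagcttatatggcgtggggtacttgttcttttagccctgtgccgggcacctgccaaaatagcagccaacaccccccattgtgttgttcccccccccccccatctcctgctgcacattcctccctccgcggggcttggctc
RefSeq listed 45 promoters for 38 of the 48 members. Searched on both strands over 250 bases before and 50 after the start, CAGCTG was present in 46.7% of these 45 promoters and in 16.3% of all 32851 promoters. The MEF2 site was present in 13.3% and 3.19%, and the CArG box in 13.3% and 1.63%. The looser E-box CANNTG, which contains CAGCTG, was in 82.2% of the members' promoters and in 72.3% of all. Tnnt2 carried CAGCTG at 2 places before the start shown, so the motif stood in front of members that fell and of a start of the member that rose after siKEAP1. A second Tnnt2 start, with the window chr1:135836739-135836988, had no match to CAGCTG, the MEF2 site or the CArG box. Which start was used was not tested. These are matches of letters, and binding was not measured.

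At 1 to 100 CPM the 3 siCONTROL libraries differed in these genes more than in most genes. The median coefficient of variation between them was 33.7% over the 32 members tested and 12.9% over all genes tested. Under 1 CPM it was 35.2% for 4 members against 41.7% for all genes at that level, and at 1 to 5 CPM 38.1% for 12 against 20.9%. At 5 to 20 CPM it was 38.2% for 9 members against 11.9%, and at 20 to 100 CPM 23.0% for 5 against 9.37%. Above 100 CPM it was 8.35% for 2 members (Des and Tpm2) against 8.49%. Replicate 1 was the highest of the 3 for 23 of the 32 members, while it was the highest for 42.7% of all genes. Replicate 1 was also the highest for 20 of the 32 in siCCNF (all genes 34.3%) and for 17 of 31 in siKEAP1 (all genes 35.0%). Replicate 2 of siCONTROL was the lowest for 16 (all genes 26.0%). Without siCONTROL replicate 1, 27 members were called lower after siKEAP1, Cacng1 not among them, 27 after both and 20 after siCCNF. Mylpf, a regulatory light chain of fast myosin, was 3.71-fold higher in the highest than in the lowest siCONTROL library, Myl1 3.67-fold and Actc1 2.65-fold, whereas Des differed by 1.19-fold. Myog, which encodes myogenin, moved with them at 74.6, 31.96 and 29.3 CPM in replicates 1, 2 and 3. The 2 longest members went the other way, with Ttn (titin) at 6.59, 9.28 and 9.63 CPM and Neb (nebulin) at 2.47, 3.64 and 4.82 CPM, both lowest in replicate 1. Over all genes tested, the deviation of siCONTROL replicate 1 from its group mean correlated with log gene length at r = -0.31, a description across genes, and the part of length in these differences was not tested. Within the other groups the members' median coefficient of variation was 31.2% after siKEAP1, 20.8% after siCCNF and 23.6% after both, against 6.35%, 6.79% and 11.1% for all genes. These medians were not matched for level. Members such as Actc1 (5 reads over the siKEAP1 group) and Myl1 (6 reads) were near 0, and the part of counting error was not tested.

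**Figure D2:**
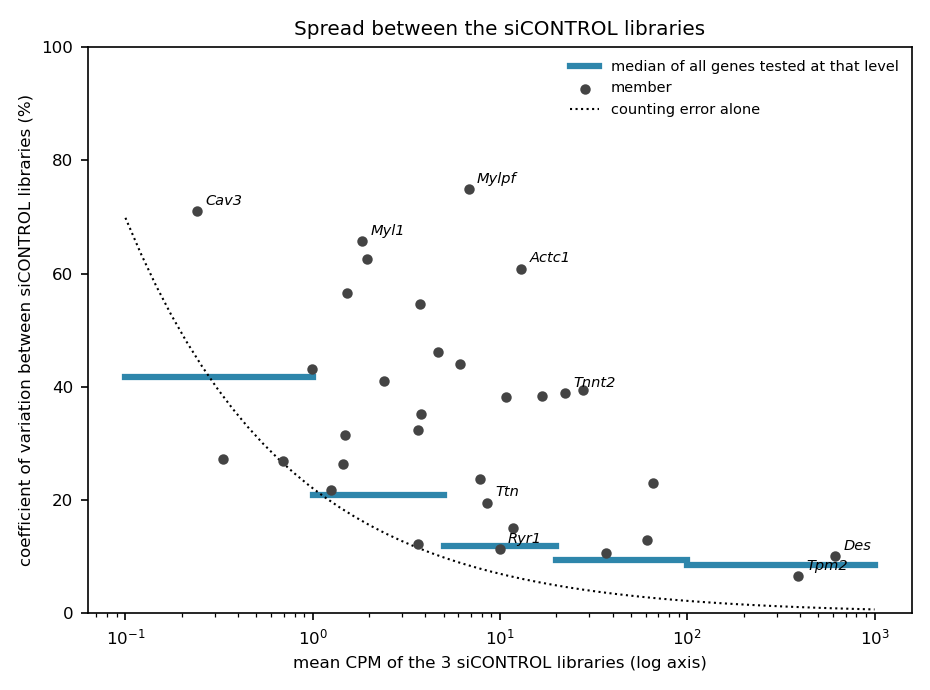
Points give, for each tested member, the mean CPM of the 3 siCONTROL libraries (log axis) and the coefficient of variation between them in percent, blue bars the median of all genes tested at that level, and the dotted line the variation from counting alone. Most members between 1 and 100 CPM lie above the blue bars, and Des and Tpm2 lie close to theirs.

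Thin filament genes fell in every depletion, with all 4 called lower against siCONTROL after siKEAP1, after siCCNF and after both. Actc1, the cardiac alpha-actin that embryonic skeletal muscle also uses, stood at 22.1, 8.46 and 8.33 CPM in the siCONTROL libraries, at 0.139, 0 and 0.0877 CPM after siKEAP1, at 5.84, 3.65 and 2.84 CPM after siCCNF and at 1.27, 0.585 and 0.835 CPM after both. No library of 1 group reached into the range of another, and siKEAP1 left 5 reads in its 3 libraries together. The difference was -7.39 ± 0.71 (log2 fold change ± SE, adjusted p = 2.42e-06 by edgeR's quasi-likelihood test, as for every adjusted p below) after siKEAP1, -1.66 ± 0.39 after siCCNF (adjusted p = 0.00317) and -3.88 ± 0.47 after both (adjusted p = 2.02e-05). Acta1, the alpha-actin of adult skeletal muscle, stood at 15.4, 7.60 and 9.29 CPM in the siCONTROL libraries, at 0.929, 1.66 and 1.10 CPM after siKEAP1, at 4.88, 3.89 and 3.60 CPM after siCCNF and at 3.41, 2.49 and 3.16 CPM after both. Its order was the same, with siCONTROL highest and siKEAP1 lowest and no overlap, although its level after both siRNAs did not pass the test against siCCNF (adjusted p = 0.410). Its difference after siKEAP1 was -3.12 ± 0.30 (adjusted p = 2.48e-06). Tpm2 was abundant and moved little, at 419, 373 and 376 CPM in the siCONTROL libraries, at 279, 272 and 275 CPM after siKEAP1, at 307, 303 and 325 CPM after siCCNF and at 291, 288 and 345 CPM after both. Every depleted library lay below every siCONTROL library, and the differences were -0.50 ± 0.08, -0.32 ± 0.08 and -0.34 ± 0.08 in the same order of groups (adjusted p = 0.000159, 0.00364 and 0.00281). Neb, the ruler of thin filament length, stood at 2.47, 3.64 and 4.82 CPM in the siCONTROL libraries, at 1.02, 0.770 and 0.482 CPM after siKEAP1, at 2.08, 2.10 and 2.36 CPM after siCCNF and at 0.357, 0.554 and 0.395 CPM after both. Here siCCNF lay just under siCONTROL, and both groups with siKEAP1 lay far lower and overlapped. The siCCNF difference of -0.73 ± 0.27 (adjusted p = 0.0377) was lost on leaving out siCONTROL replicate 2 or 3 or any siCCNF library, where it lay between -0.79 and -0.48 with adjusted p up to 0.198. It was also lost with limma on log2(FPKM + 1) (adjusted p = 0.116) and log2(FPKM + 0.1) (adjusted p = 0.0904) and with the replicate block (adjusted p = 0.0584).

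Myosin heavy chain genes were weak throughout. Of 5, Myh1 (an adult fast isoform) and Myh3 (the embryonic isoform) could be tested. Myh3 stood at 7.04, 2.93 and 3.95 CPM in the siCONTROL libraries, at 0.232, 0.0405 and 0.132 CPM after siKEAP1, at 2.79, 2.57 and 1.45 CPM after siCCNF and at 0.833, 0.770 and 0.132 CPM after both. The siKEAP1 libraries were lowest, overlapped by 1 library with both siRNAs, while siCCNF lay between them and siCONTROL. The fall was -5.10 ± 0.64 after siKEAP1 (adjusted p = 2.93e-05) and -2.95 ± 0.49 after both (adjusted p = 0.000275), and the siCCNF difference of -1.05 ± 0.42 did not pass (adjusted p = 0.0537). Myh1 fell in all 3 depletions, with log2 differences of -3.59 after siKEAP1, -2.24 after siCCNF and -3.12 after both. Of its 50-base windows, 25.4% also occur in other genes, most often Myh2, so its reads are uncertain. Myh2, Myh7 and Myh8 together reached 31 reads in the siCONTROL group and 6 after siKEAP1.

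All 3 myosin light chains that could be tested fell after siKEAP1. Mylpf stood at 12.7, 3.42 and 4.33 CPM in the siCONTROL libraries, at 0.790, 1.38 and 0.877 CPM after siKEAP1, at 3.93, 2.88 and 2.66 CPM after siCCNF and at 1.47, 1.85 and 1.71 CPM after both. Replicate 1 of siCONTROL stood apart at the top, siCCNF overlapped the other siCONTROL libraries, and siKEAP1 lay lowest. The differences were -2.74 ± 0.46 after siKEAP1 (adjusted p = 0.000326), -1.12 ± 0.39 after siCCNF (adjusted p = 0.0311) and -2.03 ± 0.42 after both (adjusted p = 0.00159). Without siCONTROL replicate 1 the siCCNF difference was -0.30 (adjusted p = 0.349), and it was also lost without siCCNF replicate 2 (-1.05) or 3 (-0.99), with limma on log2(FPKM + 1) (adjusted p = 0.0876) or log2(FPKM + 0.1) (adjusted p = 0.0902), and with only the compared libraries (adjusted p = 0.0819). Of the 50-base windows of Myl1, an essential light chain of fast fibres, 11.7% also occur in Mylf-ps. Myl1 fell after siKEAP1 (log2 difference -4.34 ± 0.60, adjusted p = 6.57e-05). Its siCCNF call (-1.41) was lost without siCONTROL replicate 1 (-0.74) or siCCNF replicate 2 (-1.27). Myl4, the embryonic and atrial light chain, fell after siKEAP1 alone among the comparisons with siCONTROL (-1.85 ± 0.36, adjusted p = 0.00104), and siKEAP1 and siKEAP1/siCCNF differed (1.27 ± 0.37, adjusted p = 0.0107). Myl2 and Myl3, light chains of slow and cardiac fibres, had at most 3 reads in any group.

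The troponins, which make the thin filament sensitive to calcium, held the 1 member that rose after siKEAP1. Tnnt2, the cardiac troponin T that immature skeletal muscle also makes, stood at 31.7, 20.3 and 14.8 CPM in the siCONTROL libraries, at 56.2, 55.1 and 53.1 CPM after siKEAP1, at 8.75, 7.74 and 8.64 CPM after siCCNF and at 9.33, 10.97 and 11.1 CPM after both. The siKEAP1 libraries were higher than all others, and the groups with siCCNF lay below siCONTROL, with no overlap anywhere. Tnnt2 rose by 1.30 ± 0.19 after siKEAP1 (adjusted p = 0.000136), and fell after siCCNF and after both, with differences of -1.41 ± 0.20 and -1.09 ± 0.20 (adjusted p = 8.78e-05 and 0.000713). The other troponins went down together. Tnnt1 stood at 40.3, 20.2 and 22.8 CPM in the siCONTROL libraries, at 2.42, 1.42 and 2.15 CPM after siKEAP1, at 14.5, 9.25 and 11.997 CPM after siCCNF and at 7.14, 6.99 and 9.18 CPM after both. No group overlapped another, and the order from the top was siCONTROL, siCCNF, both, siKEAP1. The difference was -3.81 ± 0.30 after siKEAP1 (adjusted p = 4.84e-07), -1.22 ± 0.24 after siCCNF (adjusted p = 0.00113) and -1.85 ± 0.26 after both (adjusted p = 6.56e-05). Tnni1, the slow troponin I, stood at 9.28, 4.56 and 4.62 CPM in the siCONTROL libraries, at 0.325, 0.162 and 0.526 CPM after siKEAP1, at 0.969, 0.855 and 0.671 CPM after siCCNF and at 0.317, 0.462 and 0.308 CPM after both. All depleted libraries lay below 1 CPM, and siKEAP1 overlapped the double depletion. It had the largest siCCNF fall of the members, -2.89 ± 0.34 (adjusted p = 1.44e-05), beside -4.19 ± 0.40 after siKEAP1 and -4.04 ± 0.39 after both. Tnnt3 and Tnni2, the fast troponins T and I, and Tnnc1, the troponin C of slow fibres, fell in all 3 depletions, from -3.46 for Tnni2 after siKEAP1 to -0.95 for Tnnc1 after siCCNF. The Tnni2 call after siCCNF was lost without siCONTROL replicate 1 (-1.30, adjusted p = 0.0712). Tnnc2, the fast troponin C, had 1 read over all libraries. Exons of Ube2c on the opposite strand cover 74.0% of its exon bases, so its count is uncertain.

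**Figure D3:**
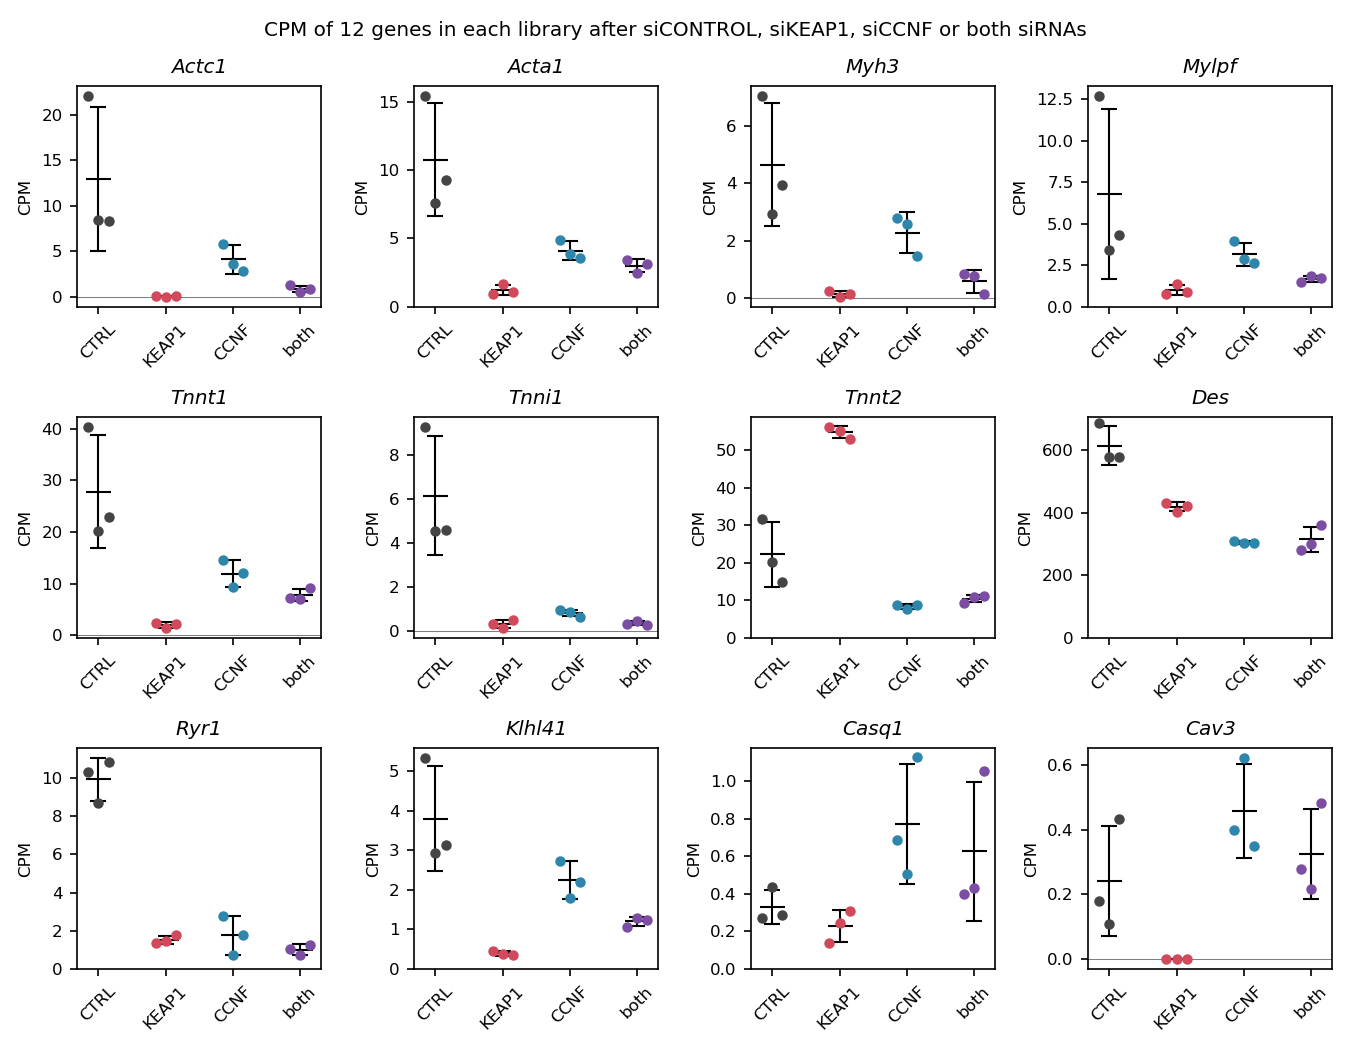
Points give the CPM of 12 members in each of the 3 libraries of siCONTROL (CTRL), siKEAP1 (KEAP1), siCCNF (CCNF) and siKEAP1/siCCNF (both), with black bars for mean ± SD. Tnnt2 is highest after siKEAP1, Casq1 and Cav3 have their highest values in libraries with siCCNF, and the other 9 are highest in siCONTROL, 7 of them, namely Actc1, Acta1, Myh3, Mylpf, Tnnt1, Tnni1 and Klhl41, with replicate 1 well above replicates 2 and 3.

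Titin and its testable neighbours all fell after siKEAP1. Ttn stood at 6.59, 9.28 and 9.63 CPM in the siCONTROL libraries, at 1.16, 1.17 and 1.14 CPM after siKEAP1, at 4.82, 4.82 and 4.86 CPM after siCCNF and at 1.55, 1.69 and 1.27 CPM after both. The 4 groups did not overlap, and both groups with siKEAP1 were close to each other. The differences were -2.87 ± 0.19 after siKEAP1, -0.81 ± 0.16 after siCCNF and -2.48 ± 0.18 after both (adjusted p = 8.33e-08, 0.000786 and 2.12e-07), and the siCCNF call was lost with limma on log2(FPKM + 1) (adjusted p = 0.238) and log2(FPKM + 0.1) (adjusted p = 0.108). Myom2, a myomesin that links myosin filaments at the M-band, stood at 3.81, 3.15 and 3.997 CPM in the siCONTROL libraries, at 0.0464, 0.567 and 0.658 CPM after siKEAP1, at 2.20, 2.80 and 2.25 CPM after siCCNF and at 1.63, 1.79 and 1.54 CPM after both. No group overlapped another, with siCCNF under siCONTROL but not past the test (-0.60 ± 0.31, adjusted p = 0.129). It fell after siKEAP1 (-3.07 ± 0.40, adjusted p = 4.12e-05) and after both (-1.14 ± 0.33, adjusted p = 0.0121). Myom1, the other myomesin, fell after siKEAP1 (-1.33 ± 0.31, adjusted p = 0.00386, but 0.0547 with limma on log2(FPKM + 1)) and read 0.46 ± 0.27 after siCCNF and 0.12 ± 0.27 after both, neither past the test. Mybph, a myosin-binding protein related to the C proteins, stood at 2.51, 1.09 and 0.963 CPM in the siCONTROL libraries, at 0.232, 0.0405 and 0 CPM after siKEAP1, at 0.399, 0.389 and 0.188 CPM after siCCNF and at 0.0794, 0.0616 and 0 CPM after both. All depleted libraries were below all siCONTROL libraries and overlapped among themselves. Its differences were -4.06, -2.24 and -4.82. On the opposite strand, exons of Adora1 cover 49.9% of its exon bases, and without strand in the counting the reads of the pair cannot be told apart. Mybpc1, the slow myosin-binding protein C, had 24 reads in the siCONTROL group and 0 after siKEAP1 and after both siRNAs. With the group at 0 set to a floor of 3 reads, it was 8.98-fold lower after siKEAP1 and 10.5-fold lower after both. These folds take the siCONTROL reads as exact.

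At the Z-disc, siCCNF lowered all 4 testable members and siKEAP1 lowered 2 of them. Des stood at 686, 578 and 577 CPM in the siCONTROL libraries, at 432, 403 and 423 CPM after siKEAP1, at 311, 303 and 304 CPM after siCCNF and at 282, 302 and 361 CPM after both. Every siKEAP1 library lay below siCONTROL, and the groups with siCCNF lay lower again and overlapped. The difference was -0.55 ± 0.09 after siKEAP1 (adjusted p = 0.000308), -1.005 ± 0.09 after siCCNF (adjusted p = 1.56e-06) and -0.96 ± 0.09 after both (adjusted p = 2.63e-06). Actn3 followed the same order at 83.3, 59.4 and 55.2 CPM in the siCONTROL libraries, at 38.6, 30.8 and 33.3 CPM after siKEAP1, at 22.8, 16.99 and 18.9 CPM after siCCNF and at 16.3, 17.7 and 19.9 CPM after both. Its differences were -0.95 ± 0.15, -1.75 ± 0.16 and -1.88 ± 0.16 (adjusted p = 0.000273, 1.39e-06 and 9.97e-07), and the level after both siRNAs was below that after siKEAP1 (-0.93 ± 0.16, adjusted p = 0.000296). Xirp1, an actin-binding protein of Z-discs under strain, stood at 0.583, 0.597 and 0.915 CPM in the siCONTROL libraries, at 0.743, 0.324 and 0.439 CPM after siKEAP1, at 0.0855, 0.0389 and 0.242 CPM after siCCNF and at 0.119, 0.216 and 0 CPM after both. The siKEAP1 libraries overlapped siCONTROL, and the groups with siCCNF lay below both. The siCCNF fall was -2.38 ± 0.65 (adjusted p = 0.00762) on 13 reads in the group. Ldb3, a PDZ protein that holds alpha-actinin at the Z-disc, fell after siCCNF (-0.54 ± 0.10, adjusted p = 0.000419) and after both (-0.65 ± 0.10, adjusted p = 0.000119) and read -0.19 ± 0.10 after siKEAP1 (adjusted p = 0.125). The other 5 Z-disc members (Actn2, Tcap, Myoz1, Myoz2 and Smpx) had too few reads for a test, at most 18 in a group.

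The coupling genes divided by gene. Ryr1, the ryanodine receptor that releases stored calcium, stood at 10.3, 8.68 and 10.8 CPM in the siCONTROL libraries, at 1.35, 1.46 and 1.75 CPM after siKEAP1, at 2.77, 0.739 and 1.77 CPM after siCCNF and at 1.03, 0.739 and 1.27 CPM after both. The siCONTROL libraries agreed closely and lay above all depleted libraries, which overlapped. The differences were -2.71 ± 0.33 after siKEAP1, -2.46 ± 0.31 after siCCNF and -3.31 ± 0.35 after both (adjusted p = 2.53e-05, 2.86e-05 and 5.68e-06). Atp2a1, the calcium pump SERCA1, and Jsrp1 also fell in every depletion, with log2 differences of -3.63, -1.91 and -2.61 for Atp2a1 and -2.06, -1.67 and -1.95 for Jsrp1. Exons of Rabep2 on the opposite strand cover 21.9% of the exon bases of Atp2a1. Cacng1 stood at 69.7, 58.9 and 54.5 CPM in the siCONTROL libraries, at 47.9, 48.4 and 50.5 CPM after siKEAP1, at 30.3, 27.8 and 27.99 CPM after siCCNF and at 26.98, 27.6 and 34.2 CPM after both. The siKEAP1 libraries lay just under siCONTROL and the groups with siCCNF well under it. The siKEAP1 difference was -0.32 ± 0.10 (adjusted p = 0.0252) and was lost without siCONTROL replicate 1 (-0.22, adjusted p = 0.0765) or without siKEAP1 replicate 1 or 2. After siCCNF it was -1.09 ± 0.10 (adjusted p = 2.45e-06) and after both -1.05 ± 0.11 (adjusted p = 4.20e-06).

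The calsequestrins, which buffer stored calcium, and caveolin 3 were different from the rest. Casq1, the skeletal calsequestrin, stood at 0.269, 0.434 and 0.289 CPM in the siCONTROL libraries, at 0.139, 0.243 and 0.307 CPM after siKEAP1, at 0.684, 0.505 and 1.13 CPM after siCCNF and at 0.397, 0.431 and 1.05 CPM after both. The siCCNF libraries lay above all siCONTROL libraries, and the double depletion overlapped both. The siCCNF rise of 1.25 ± 0.49 passed narrowly (adjusted p = 0.0488) on 79 reads in the group against 20. It was lost with DESeq2, with total library sizes, with no filter on low counts, with log2(FPKM + 1), and on leaving out any library except siCCNF replicate 2 or siKEAP1/siCCNF replicate 3, where the difference ranged over 0.87 to 1.48. Casq2, the cardiac form, passed the test in no comparison with siCONTROL. Cav3, the muscle caveolin of the cell membrane, stood at 0.179, 0.109 and 0.433 CPM in the siCONTROL libraries, at 0, 0 and 0 CPM after siKEAP1, at 0.399, 0.622 and 0.349 CPM after siCCNF and at 0.278, 0.216 and 0.483 CPM after both. It was absent from every siKEAP1 library, and siCCNF and the double depletion overlapped siCONTROL. With 15 reads in the siCONTROL group and 0 after siKEAP1, it was 5.61-fold lower at a floor of 3 reads over the group (adjusted p = 0.00552). This fold takes the 15 reads as exact, although the siCONTROL libraries ranged over 0.109 to 0.433 CPM. Cacna1s, the voltage sensor itself, had 18 reads in the siCONTROL group, 13 after siCCNF and 0 in both groups with siKEAP1, at least 6.73-fold lower after siKEAP1 and at least 7.85-fold lower after both.

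Genes of energy supply and assembly were scarce but went the same way after siKEAP1. Ckm, the muscle creatine kinase that buffers ATP, had 48 reads in the siCONTROL group, 0 after siKEAP1, 7 after siCCNF and 9 after both. With siKEAP1 set to the floor of 3 reads it was 17.95-fold lower there. Exons of A930016O22Rik on the opposite strand cover 15.5% of its exon bases. Mb, which encodes myoglobin, the oxygen store of muscle, stood at 1.17, 0.326 and 0.626 CPM in the siCONTROL libraries, at 0.0929, 0 and 0 CPM after siKEAP1, at 0.114, 0.0778 and 0 CPM after siCCNF and at 0.0397, 0.123 and 0.0439 CPM after both. The depleted libraries lay below all siCONTROL libraries, and 2 reads were left after siKEAP1, a ratio of 0.0396 (95% interval 0.00465 to 0.152) for counting error alone. Exons of Gm49540 on the opposite strand cover 27.6% of the exon bases of Mb, so its count is uncertain. Unc45b, a chaperone that folds myosin, had 50 reads in the siCONTROL group and 2 after siKEAP1, a ratio of 0.0356 (95% interval 0.00420 to 0.136). Klhl41, an adaptor that stabilises nebulin, stood at 5.33, 2.93 and 3.13 CPM in the siCONTROL libraries, at 0.464, 0.365 and 0.351 CPM after siKEAP1, at 2.74, 1.79 and 2.20 CPM after siCCNF and at 1.07, 1.29 and 1.23 CPM after both. The 4 groups did not overlap, with siCONTROL highest and siKEAP1 lowest. Its differences were -3.27 ± 0.32, -0.76 ± 0.25 and -1.66 ± 0.27 (adjusted p = 2.93e-06, 0.0218 and 0.000209), and the siCCNF call was lost without siCONTROL replicate 1 (-0.43, adjusted p = 0.155) or siCCNF replicate 2 (-0.62) or 3 (-0.73), or with only the compared libraries (adjusted p = 0.0555). Smyd1, a methyltransferase needed for thick filament assembly, stood at 1.57, 1.09 and 1.11 CPM in the siCONTROL libraries, at 0.139, 0.0810 and 0 CPM after siKEAP1, at 0.371, 0.467 and 0.725 CPM after siCCNF and at 0, 0.0616 and 0 CPM after both. Both groups with siKEAP1 were near 0 and overlapped, and siCCNF lay between them and siCONTROL. Its difference after siKEAP1 was -4.03 ± 0.64 (adjusted p = 0.000192). After both siRNAs 2 reads were left of 78, a ratio of 0.0196 (95% interval 0.00233 to 0.0732). The siCCNF difference of -1.25 ± 0.44 (adjusted p = 0.0303) was lost without any 1 of the siCONTROL libraries or of siCCNF replicates 1 and 2, with adjusted p up to 0.113, and with the replicate block (adjusted p = 0.0529).

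When siCCNF was added to siKEAP1, members were called in both directions, in counts not far from the shares over all genes. Between siKEAP1/siCCNF and siKEAP1, 11 of the 32 were higher and 6 lower (all genes 24.1% higher and 26.9% lower), with a median of 0.28. The 11 were Actc1 (3.52 ± 1.00), Acta1 (1.27 ± 0.31), Myh3 (2.15 ± 0.80), Myl4, Tnnt1 (1.96 ± 0.31), Myom1, Myom2 (1.93 ± 0.42), Casq1, Atp2a1, Cav3 and Klhl41 (1.60 ± 0.35). Cav3, with 25 reads against 0, was 7.15-fold higher at the floor of 3 reads. All 4 testable Z-disc genes were lower, and so were Tnnt2 (-2.39 ± 0.20) and Cacng1 (-0.73 ± 0.10). The calls for Myh3, Xirp1 and Atp2a1 were each lost on leaving out 1 library. For Myh3 these were siKEAP1 replicates 2 and 3 and siKEAP1/siCCNF replicates 1 and 2, with differences from 1.70 to 2.16. For Xirp1 they were replicates 1 and 3 of both groups, with differences from -2.07 to -1.50. For Atp2a1 they were siKEAP1 replicates 1 and 2 and siKEAP1/siCCNF replicate 1, with differences from 0.78 to 0.89. The Casq1 call was lost without siCONTROL replicate 3, any siKEAP1 library, siCCNF replicate 1 or siKEAP1/siCCNF replicate 3, within a range of 0.84 to 1.64 over all omissions. With limma on log2(FPKM + 1) the calls for Actc1 (adjusted p = 0.136), Myh3 (adjusted p = 0.508), Xirp1 (adjusted p = 0.0636) and Casq1 (adjusted p = 0.0726) were lost, that for Myh3 also on log2(FPKM + 0.1) (adjusted p = 0.140). The comparison shares its siKEAP1 libraries with the comparison of siKEAP1 and siCONTROL. Its 2 groups also differed in Keap1, at 12.3 to 12.8 CPM after siKEAP1 and 22.2 to 27.01 CPM after both, and the part of this was not tested. Of the 11 genes that were higher, Myl4, Myom1, Casq1 and Cav3 were not called against siCONTROL after both siRNAs, and the other 7 were lower than siCONTROL.

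In cells that also received siCCNF, siKEAP1 changed fewer members. Keap1 was also less depleted there, at 22.2 to 27.01 CPM against 12.3 to 12.8 CPM after siKEAP1 alone. Between siKEAP1/siCCNF and siCCNF, 6 of the 32 were lower and 0 higher (all genes 2.19% lower and 3.00% higher), with a median of -0.58. These were Smyd1 (-4.17 ± 0.83), Neb (-2.29 ± 0.33), Actc1 (-2.22 ± 0.48), Ttn (-1.67 ± 0.18), Myl1 (-2.06 ± 0.56) and Myh3 (-1.91 ± 0.50). The adjusted p was 0.000117 for Ttn, 0.00139 for Neb and 0.00832 for Smyd1. The Smyd1 difference is a fitted value on very few reads after both siRNAs. On leaving out 1 library it ranged from -6.74 to -3.70, with the call kept. With limma on log2(FPKM + 1), which compresses low genes, the calls of Ttn (adjusted p = 0.529), Neb (adjusted p = 0.192), Smyd1 (adjusted p = 0.0721), Myl1 (adjusted p = 0.352) and Myh3 (adjusted p = 0.157) were lost. On log2(FPKM + 0.1) those of Ttn (adjusted p = 0.247) and Myl1 (adjusted p = 0.0572) were lost, and DESeq2 gave Smyd1 no adjusted p. The Actc1 call was lost without siCCNF replicate 1 (-1.87), siKEAP1/siCCNF replicate 2 (-1.97) or 3 (-2.20), and the calls for Myl1 and Myh3 without any library other than siCONTROL replicate 1 or 2, with adjusted p up to 0.173 and 0.155.

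The effect of siKEAP1 differed between the 2 backgrounds for 17 members. The interaction, the siKEAP1 difference with siCCNF minus that without it, was positive and called for 16 of the 32 and negative and called for 1 (all genes 10.6% and 10.5%), with a median of 1.45. It was 5.17 ± 1.03 for Actc1 (adjusted p = 0.00282), 3.18 ± 0.40 for Tnnt1 (adjusted p = 0.000118) and 3.03 ± 0.63 for Tnni1 (adjusted p = 0.00407). For these genes siKEAP1 lowered the transcript by more in control cells than in CCNF-depleted cells, which started from a lower level. Keap1 itself stood at 12.3 to 12.8 CPM after siKEAP1 and at 22.2 to 27.01 CPM after both siRNAs, a weaker depletion. The part of this weaker depletion in the interaction was not tested. For Tnnt2 the interaction was -0.98 ± 0.28 (adjusted p = 0.0265), lost without siCONTROL replicate 2, siKEAP1 replicate 1 or 2, siCCNF replicate 1 or 3, or siKEAP1/siCCNF replicate 1, with values from -0.98 to -0.90, and with the gene length trend removed (-0.82, adjusted p = 0.0812). For Neb and Smyd1 it was -0.03 ± 0.46 and -0.14 ± 1.42, neither past the test.

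**Figure D4:**
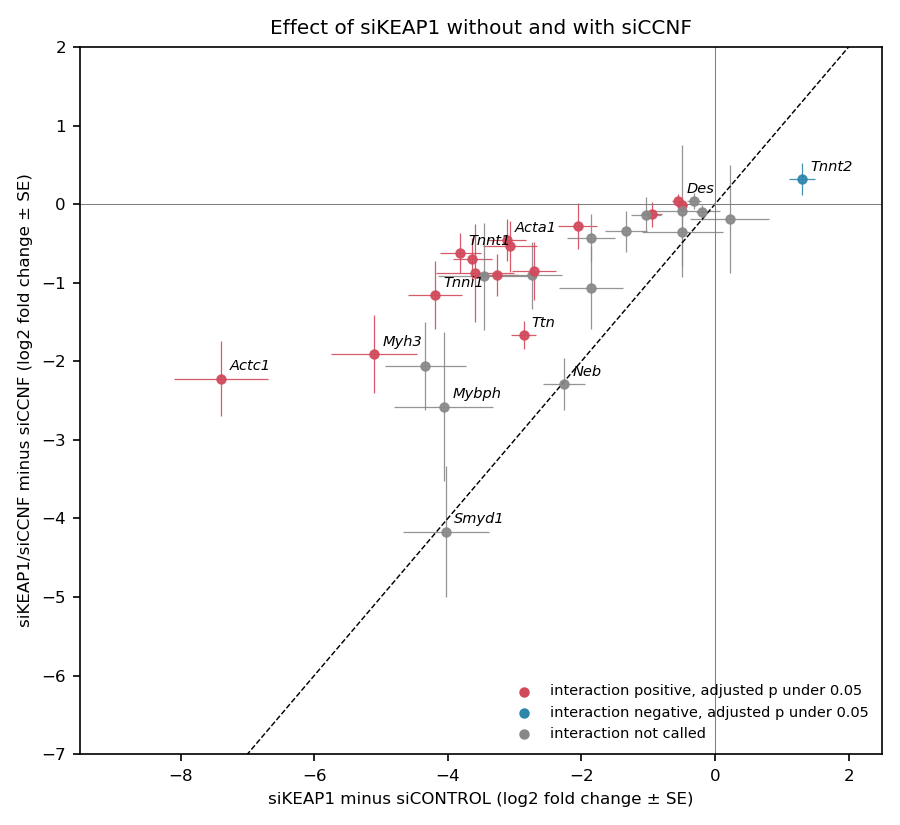
Each point is 1 tested member, placed by the log2 fold change of siKEAP1 against siCONTROL (horizontal) and of siKEAP1/siCCNF against siCCNF (vertical), with bars of 1 SE, a dashed line where both are equal, and colour for the interaction. The axes share no library, Cav3 is left out because siKEAP1 had no read of it, and most points lie above the dashed line, with Tnnt2 below it.

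Of 3 regulators of these genes, Myog and Myod1 were lower in all depletions. Myog stood at 74.6, 31.96 and 29.3 CPM in the siCONTROL libraries, at 0.232, 0.162 and 0.132 CPM after siKEAP1, at 10.1, 6.84 and 7.35 CPM after siCCNF and at 1.51, 1.76 and 2.02 CPM after both. The 4 groups did not overlap and stood in the order seen for Actc1. Its differences were -7.99 ± 0.51, -2.48 ± 0.30 and -4.69 ± 0.36 (adjusted p = 6.88e-08, 1.86e-05 and 4.16e-07). Myod1 stood at 253, 222 and 206 CPM in the siCONTROL libraries, at 68.7, 67.1 and 69.9 CPM after siKEAP1, at 69.3, 78.3 and 80.2 CPM after siCCNF and at 78.5, 76.1 and 85.9 CPM after both, about equally low in the 3 depletions, with differences of -1.73 ± 0.09, -1.58 ± 0.08 and -1.50 ± 0.08 (adjusted p = 8.02e-09, 1.86e-08 and 3.85e-08). Mef2c had too few reads for a test. The part of either factor in the members' levels was not tested.

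Other lists were counted beside the members. Of 45 further contractile and coupling genes, 30 were tested, and 15 were lower and 2 higher after siKEAP1, 14 and 2 after siCCNF, and 16 and 3 after both, with medians of -0.63, -0.67 and -0.68. Of 16 myogenic regulators and fusion genes, 15 were tested, with 11 lower and 3 higher after siKEAP1, 9 and 3 after siCCNF, and 10 and 3 after both. The 14 genes of non-muscle actomyosin, the contractile system of all cells, stayed nearer to 0 with medians of -0.31, -0.03 and -0.10. Of these, 8 were lower and 1 higher after siKEAP1, 6 and 4 after siCCNF, and 6 and 3 after both. Of 8 smooth muscle contractile genes, 7 were tested, and 2 were lower and 2 higher after siKEAP1, 1 and 6 after siCCNF, and 1 and 4 after both.

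Markers of other cell types moved with the groups as well. Of 7 fibroblast markers, 5 were tested. All 5 were lower after siKEAP1, all 5 higher after siCCNF, and 3 higher after both. Their sum was 7174 to 8285 CPM in the siCONTROL libraries, 3307 to 3526 CPM after siKEAP1, 12001 to 12767 CPM after siCCNF and 7415 to 8035 CPM after both, with Thy1 at 0 in all groups but siKEAP1 and Lum at 0 there. Of 5 adipocyte markers, 3 were tested, and 2 were higher after siKEAP1, 1 lower after siCCNF, and 1 higher and 1 lower after both. Their sum was 55.5 to 60.0 CPM, 79.7 to 84.5 CPM, 26.2 to 32.3 CPM and 34.8 to 42.0 CPM in siCONTROL, siKEAP1, siCCNF and both, and Adipoq and Plin1 were at 0 in some groups. Of 5 osteoblast markers, 3 were tested, and 1, 2 and 1 were higher, from 62.6 to 84.0 CPM in siCONTROL, 81.4 to 86.7 CPM after siKEAP1, 93.5 to 95.6 CPM after siCCNF and 77.4 to 100.2 CPM after both, with Ibsp at 0. Of 6 cardiac markers, 2 were tested, 1 of them lower after siCCNF and after both. Their sum did not exceed 4.21 CPM in any library, and Tbx5 and Myl7 were at 0 throughout. The 7 markers of differentiating myocytes, which include the members Acta1, Myh3, Tnnt3 and Ckm, summed to 53.3 to 124.1 CPM in siCONTROL, 3.03 to 3.36 CPM after siKEAP1, 14.9 to 21.7 CPM after siCCNF and 5.94 to 6.90 CPM after both. The part of a changed mix of cells in the members' differences was not tested.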

How the data were processed

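Poly(A) RNA of 12 C2C12 cultures was sequenced. The authors deposited 1 table with counts of reads per gene, not normalized, the FPKM of each gene and library made by their service provider, and gene lengths. It also holds their fold changes and p-values, which were not used. The submitters' notes name HISAT2 and GRCm39. Of 54409 genes shared with GENCODE M21 on GRCm38, 53499 had the same start and end, so coordinates are taken as GRCm38. The counting tool, annotation and use of strand are not given in the sources used here, so reads shared by overlapping genes or close paralogs are uncertain.

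Counts were tested with edgeR 4.0.16 (R 4.3.3): filterByExpr, TMM scaling, quasi-likelihood fit of 4 group means to all libraries, two-sided tests, Benjamini-Hochberg adjustment over 15122 genes, calls at an adjusted p under 0.05. CPM used TMM-scaled library sizes. A group at 0 was set to a floor of 3 reads over the group, and groups of 1 to 3 reads got an exact 95% binomial interval. Folds at the floor take the reads of the other group as exact and are no confidence limits. Intervals cover counting error only. The code was tested on simulated data.

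Members, role lists and marker lists were chosen with earlier results of these data known. Values per library are given for the member with the highest FPKM in each role and for the 3 largest called rises and falls of each comparison, and also for Acta1, Ttn and, in part, others chosen after their values were seen. The other lists were further contractile, myogenic, non-muscle actomyosin, smooth muscle, fibroblast, adipocyte, osteoblast and cardiac genes. Alternatives were DESeq2 1.42.0, total library sizes, other filters on low counts, limma 3.58.1 on log2(FPKM + 1) and log2(FPKM + 0.1), a replicate block, removal of a gene length trend, only the compared libraries, and each library left out.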

Additional observations from a re-analysis of the deposited data

Results flagged for a closer look

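In 17 members the effect of siKEAP1 differed between CCNF-depleted cells and control cells by the interaction test, on the log2 scale and with edgeR's adjusted p under 0.05. In the thin filament it was 2.66 for Acta1, 5.17 for Actc1 and 0.48 for Tpm2. Among myosins it was 2.72 for Myh1 and 3.20 for Myh3. The troponins gave 3.18 for Tnnt1, 3.03 for Tnni1 and -0.98 for Tnnt2, the 1 negative value. It was 1.20 for Ttn, 2.53 for Myom2, 0.82 for Actn3 and 0.59 for Des. The coupling genes gave 1.86 for Ryr1, 2.93 for Atp2a1 and 1.77 for Jsrp1, and Klhl41 gave 2.36. Cav3 gave 5.18, a fitted value that depends on how the absence of reads after siKEAP1 is handled and is no bound. Keap1 was less depleted after both siRNAs than after siKEAP1, and the part of this in the interactions was not tested.

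Of these, the Myh1 call was lost on leaving out any library except siCCNF replicate 1 (2.34 to 3.06), and the Cav3 call without siCONTROL replicate 3, any siKEAP1 library, siCCNF replicate 1 or 3, or siKEAP1/siCCNF replicate 3 (4.49 to 5.20). The Myh3 call was lost without siKEAP1 replicate 2 or 3 or siKEAP1/siCCNF replicate 1 or 2 (2.74 to 3.20). Actn3 (0.75 without siKEAP1 replicate 2) and Ryr1 (1.67 without siKEAP1/siCCNF replicate 3) missed the threshold at an adjusted p of 0.0525 and 0.0518. With limma on log2(FPKM + 1) and log2(FPKM + 0.1) the calls of Ttn (adjusted p = 0.452 and 0.276) and Cav3 (adjusted p = 0.489 and 0.108) were lost, and that of Myh3 on log2(FPKM + 1) (adjusted p = 0.0764). The Cav3 call was also lost with the replicate block (adjusted p = 0.0534). The Tnnt2 call was lost without siCONTROL replicate 2, siKEAP1 replicate 1 or 2, siCCNF replicate 1 or 3, or siKEAP1/siCCNF replicate 1, and with the gene length trend removed (-0.82, adjusted p = 0.0812).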

How the results depend on the processing

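Of 2458 values of the 121 called member differences under the alternatives, 2321 kept their direction and passed the threshold, 137 no longer passed and 0 reversed. Calls that an alternative did not test were left out and not counted as lost. With at least 10 counts in every library 64 of the 121 calls were tested, and with only the compared libraries 99. Leaving out 1 library each gave 1449 of the 2458 values, of which 102 no longer passed. The number of members called higher and lower then ranged over 1 to 1 and 27 to 30 after siKEAP1, 0 to 1 and 20 to 29 after siCCNF, 0 to 0 and 27 to 30 after both, 8 to 13 and 5 to 7 for both against siKEAP1, 0 to 0 and 3 to 9 for both against siCCNF, and 13 to 19 and 0 to 1 for the interaction. The medians ranged over -2.80 to -2.59, -1.37 to -0.96, -2.07 to -1.55, 0.13 to 0.37, -0.78 to -0.49 and 1.03 to 1.73 in the same order.

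With at least 10 counts in every library 16 members were tested, against 32, and shares over all genes were not counted. Of the 16, 14 were lower in each comparison with siCONTROL, and 0 were higher after siCCNF. For both against siKEAP1 5 were higher, for both against siCCNF 1 was lower, and for the interaction 10 were positive. Medians were then -1.58 after siKEAP1, -1.45 after both, -0.31 for both against siCCNF and 1.08 for the interaction. On log2(FPKM + 1), where low genes are compressed, medians were -0.51, -0.45, -0.67, 0.031, -0.11 and 0.46 in the order above, with 0 higher after siCCNF and 1 lower for both against siCCNF. On log2(FPKM + 0.1) they were -1.54 after siKEAP1, -0.97 after siCCNF, -1.39 after both, -0.37 for both against siCCNF and 1.03 for the interaction. With DESeq2, total library sizes or no filter, 0 were higher after siCCNF. With no filter, which tests all 48 members, 10 were lower for both against siCCNF. Over 2-fold, 2 were lower for both against siKEAP1, and 0 interactions were negative. With the gene length trend removed, 0 interactions were negative. The causes were not tested. Only the compared libraries was not run for the interaction, which uses all of them.

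The labels do not say whether same-numbered libraries were paired. Over all genes tested, the 18 correlations of same-numbered libraries between groups lay between -0.27 and 0.20. Among the members, replicate 1 was the highest for 23 of 32 in siCONTROL, 20 of 32 in siCCNF, 17 of 31 in siKEAP1 and 10 of 32 after both. With the replicate block, the siKEAP1 median was -2.65, and 3 calls were lost, Neb (-0.72) and Smyd1 (-1.25) after siCCNF and the Cav3 interaction (5.13). Depth limits the 16 untested members, which had 1 to 64 reads over all 12 libraries.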
